A study of Mus musculus with 7 samples.

Results

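The regions described here are stretches of open chromatin that separate mouse pancreatic alpha cells from delta cells, together with the genes that lie nearest to them. A region was called alpha-selective when it held a peak in both alpha peak lists and in neither delta list, and delta-selective in the reverse case. Of 315593 merged regions in the 4 alpha and delta lists, 14077 were selective: 7189 were alpha-selective, 2.28% of all merged regions, and 6888 were delta-selective, 2.18%. Each region was assigned to the protein-coding gene with the nearest transcript start. The measurement was ATAC-Seq, in which the Tn5 transposase cuts and tags DNA that is not wrapped tightly in nucleosomes, and the deposited values are peaks called in each library. Every mouse carried mIns1-H2b-mCherry, a red nuclear label driven by an insulin promoter, and Rosa-LSL-YFP, a yellow label that is switched on by Cre recombinase. The alpha cells came from mice that also carried Gcg-Cre, where Cre is driven by the glucagon promoter, and the delta cells from mice with Sst-Cre, where it is driven by the somatostatin promoter. Healthy mice were pooled by sex, islet cells were sorted on the labels, and cells positive for both colours were kept out of all samples. The strain is given only as mouse, and no age is given in the sources used here. There were 2 alpha and 2 delta libraries, and the lists of 3 beta libraries served as an outside reference.

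Alpha cells release glucagon, which raises blood glucose, and delta cells release somatostatin, which restrains both alpha and beta cells within the islet. Both arise from common endocrine progenitors and share many transcription factors, while the Iroquois factors IRX1 and IRX2 mark alpha cells and HHEX marks delta cells. Open chromatin at a transcript start marks a promoter that can be used. Open chromatin far from a start is often an enhancer, a stretch that binds transcription factors and acts on a gene that need not be the nearest, so a nearest gene is a label of position. RFX factors bind the X-box, homeodomain factors bind sites with the core TAATTA, MAF factors bind sites that hold TGCTGAC, and AP-1 dimers bind TGANTCA, where N is any base.

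The windows printed here show what selective regions look like at base level, each 200 bp long around the peak summit and written 5′ to 3′ on the plus strand of mm10, with bases from RefSeq GRCm38.p6. They were taken at the marker genes and at genes that lead the counts given further on. Capitals mark matches on either strand to the homeodomain letters TAATTA, to GTTGCNA as the core of an X-box, to the MAF letters TGCTGAC and to the AP-1 letters TGANTCA. The Lmo7 window holds a TGCTGAC match, the Pcdh18 and Igfbp7 windows hold an X-box core, and the Sst, Hhex and Bmper windows hold none of the 4.
Lmo7, 427 kb downstream, alpha-selective, chr14:102308020-102308219: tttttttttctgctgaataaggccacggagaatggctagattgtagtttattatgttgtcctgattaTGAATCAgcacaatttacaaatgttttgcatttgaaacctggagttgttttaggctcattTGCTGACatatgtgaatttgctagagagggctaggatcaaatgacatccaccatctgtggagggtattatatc
Bmper, 274 kb upstream, alpha-selective, chr9:22948439-22948638: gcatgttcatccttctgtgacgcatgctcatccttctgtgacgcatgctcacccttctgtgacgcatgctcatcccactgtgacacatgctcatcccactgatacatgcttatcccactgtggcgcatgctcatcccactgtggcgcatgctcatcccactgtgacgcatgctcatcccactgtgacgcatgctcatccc
Sst, 2.50 kb downstream, delta-selective, chr16:23888032-23888231: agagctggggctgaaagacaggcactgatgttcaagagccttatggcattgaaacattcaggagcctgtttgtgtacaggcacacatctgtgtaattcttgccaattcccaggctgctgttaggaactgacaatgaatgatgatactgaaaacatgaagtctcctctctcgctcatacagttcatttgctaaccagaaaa
Hhex, 5.94 kb downstream, delta-selective, chr19:37442708-37442907: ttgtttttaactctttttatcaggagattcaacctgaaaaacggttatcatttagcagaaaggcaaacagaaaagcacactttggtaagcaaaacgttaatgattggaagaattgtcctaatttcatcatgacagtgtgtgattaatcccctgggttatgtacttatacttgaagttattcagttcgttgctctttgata
Pcdh18, 170 kb upstream, delta-selective, chr3:49927710-49927909: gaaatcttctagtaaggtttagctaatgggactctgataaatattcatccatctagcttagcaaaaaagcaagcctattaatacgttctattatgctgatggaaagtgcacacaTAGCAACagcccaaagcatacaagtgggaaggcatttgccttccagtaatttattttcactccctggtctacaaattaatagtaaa
Pcdh18, 709 kb downstream, delta-selective, chr3:49046427-49046626: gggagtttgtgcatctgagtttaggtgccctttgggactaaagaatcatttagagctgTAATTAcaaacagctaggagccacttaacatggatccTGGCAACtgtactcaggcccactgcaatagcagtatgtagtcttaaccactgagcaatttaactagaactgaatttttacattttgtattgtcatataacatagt
Igfbp7, 376 kb upstream, delta-selective, chr5:77784057-77784256: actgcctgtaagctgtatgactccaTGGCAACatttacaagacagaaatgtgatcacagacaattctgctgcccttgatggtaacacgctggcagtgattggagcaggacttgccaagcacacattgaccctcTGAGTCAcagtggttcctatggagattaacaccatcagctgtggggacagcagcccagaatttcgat
The Pcdh18 window upstream of the gene lies in an intron of the neighbouring gene Slc7a11. The other windows are intergenic. The Bmper window is a tandem array of a short unit, although none of it is masked as a repeat in the reference. A match is a description of letters and does not show that a factor binds.

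Several facts about the libraries bear on every comparison. The alpha libraries and beta 1 carry lane number 6 in their deposited names, and the delta libraries, beta 2 and beta 3 carry lane number 7, so lane, mouse line and cell type cannot be told apart between alpha and delta. The deposited name of the beta 1 list begins with alpha and those of beta 2 and beta 3 begin with delta, which departs from their labels. The lists held 131151 peaks in alpha 1, 111961 in alpha 2, 158066 in delta 1 and 75860 in delta 2. Peaks on chromosome Y made up 0.0816% of the alpha 1 list, 0.558% of alpha 2, 0.0924% of delta 1 and 0.442% of delta 2, so each cell type had a list with few and a list with many. In the study's quality table replicate 1 of both cell types came from females and replicate 2 from males, so the replicate number carries sex. The beta 1 list stood apart with 518503 peaks, of which 5.0% were strong, against 35.2% in beta 2 and 36.6% in beta 3. A peak was called strong when its −log10 q was at least 2. The lists hold no read counts behind a peak. Per the same table, the delta 2 library was the shallowest of the alpha and delta libraries in uniquely mapped reads and came from fewer cells, and beta 1 was the shallowest of all. The weakest peak listed in each library had a −log10 p of 2.0. A missing peak means that the caller did not list the place, not that its chromatin was closed.

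The division by cell type held more selective regions than the other ways of splitting the 4 libraries into pairs. There were 14077 by cell type, 6605 when replicate 1 of both types was set against replicate 2, and 7797 when the numbers were crossed. In the exact permutation test over the 3 possible divisions this gave p = 0.333, the smallest value that 2 against 2 libraries can give. The test therefore cannot decide whether cell type divides the lists, and the counts are a description. They come from the same rule that defines the selective regions, and the division by cell type is also that by lane number and mouse line. With both own peaks strong, 2025 regions were alpha-selective, 0.642% of all merged regions, and 2081 were delta-selective, 0.659%. Most merged regions belonged to a single list, led by delta 1 with 94191, and 30468 were called in all 4 lists. Selective peaks were weaker than those called in all 4 lists. The median −log10 p of alpha-selective regions was 4.54 in alpha 1 and 3.69 in alpha 2, against 9.30 and 11.9 in regions called in all 4. That of delta-selective regions was 4.24 in delta 1 and 4.34 in delta 2, against 12.9 and 10.5.

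**Figure D1:**
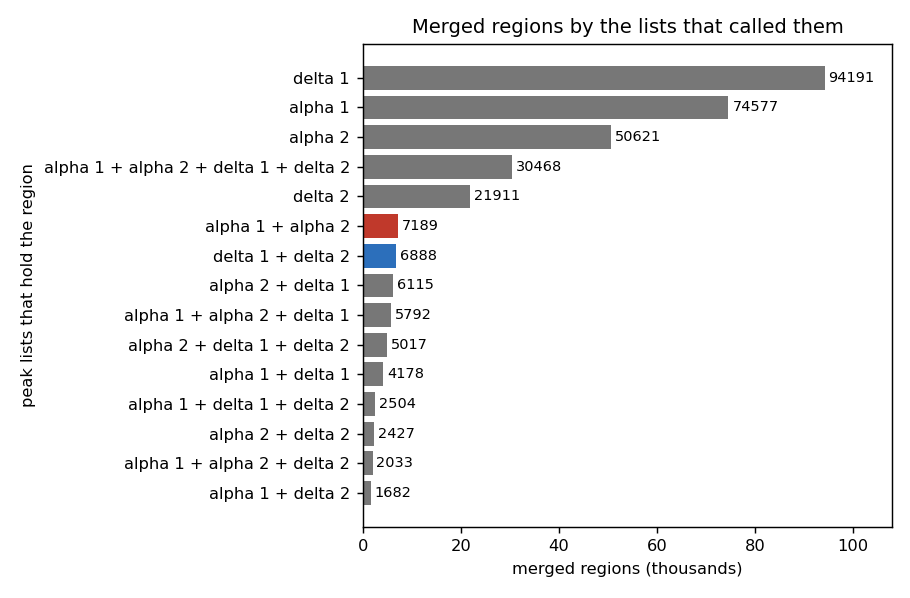
Number of merged regions (horizontal axis, with each count printed at its bar) by the set of alpha and delta peak lists that hold them (vertical axis), with alpha-selective regions in red, delta-selective in blue and the other sets in grey. The selective sets, 7189 and 6888 regions, are larger than any other set of 2 lists, the next being the 6115 regions of alpha 2 and delta 1.

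A group of alpha-selective regions also had a strong peak in beta 1 and none in beta 2 or beta 3, that is, it followed the lane number as well as the cell type. It held 598 regions, 8.32% of the alpha-selective regions, against 124 delta-selective regions, 1.80%. Of the 598, 402 were strong, which is 19.9% of all strong alpha-selective regions. Their median −log10 p was 28.7 in alpha 1 and 5.63 in alpha 2, while the other alpha-selective regions had medians of 4.21 and 3.26. The most prominent alpha-selective regions were mostly of this kind. Of the 100 that ranked highest in both alpha lists, 71 had a strong peak in beta 1 alone among the beta lists, against 1 of the 100 leading delta-selective regions. The leading alpha-selective regions lay 40.9 kb upstream of Ccn1, which encodes a secreted matrix protein, 231 kb upstream of Prickle1, a planar cell polarity gene, and 246 kb downstream of a start of AW554918. The Ccn1 region had a −log10 p of 116 in alpha 1 and 30.1 in alpha 2, and all 3 had a strong peak in beta 1 only. The leading delta-selective regions lay 220 kb downstream of Csl, with 23.4 in delta 1 and 38.5 in delta 2, 52.4 kb upstream of Ccdc85a, with 38.1 and 26.8, and 438 kb upstream of Lingo2, with 24.8 and 26.7. Strong regions of this kind at the leading genes are described below as seen strongly in beta 1 alone, and the part of the lane in them was not tested.

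At the markers of the sorted cells, the start peaks of Gcg and Sst were higher in the cell type of the label, though those of Sst were weak. Gcg, the glucagon gene, had a peak within 1 kb of its start in both alpha lists, with a −log10 p of 20 and 19.7, none in delta 1 and 4.85 in delta 2. Sst, the somatostatin gene, had a start peak of 3.05 in delta 1 and 3.19 in delta 2 and none in either alpha list. Neither was strong, with a −log10 q of 0.951 and 0.966, and in delta 2 the start peak of Gcg was higher than that of Sst. The Sst start peak in beta 1 was 5.11. Hhex, a homeodomain gene that keeps delta cells in their state, had start peaks in all 4 lists, at 4.58 and 6.36 in alpha and 15.3 and 7.92 in delta. Irx2 had start peaks of 32.3 and 51.7 in alpha and 13.0 and 13.9 in delta. Both alpha values were above both delta values at Gcg, Irx1, Irx2, Ttr and Gc, and both delta values above both alpha values at Sst, Hhex, Ghsr and Crhr2, while the groups overlapped at Rbp4 and Pdx1. At the start of Ins2, an insulin gene of beta cells, delta 2 was the only alpha or delta list with a peak, at 4.34. Beta 1 had 3.39 there and beta 3 had 3.91. Other beta cell genes differed. Ins1 had start peaks in all 4 alpha and delta lists, at 2.80 and 3.69 in alpha and 5.88 and 3.11 in delta. So did Ucn3, at 4.85 and 4.18 in alpha and 7.33 and 4.67 in delta, while Slc2a2 had none in any list. Of 9 markers of acinar, duct, endothelial and immune cells, start peaks were listed for 1 in alpha 1, 3 in alpha 2, 1 in delta 1 and 1 in delta 2.

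Selective regions near these markers were few, and those at Sst lay together. Sst was the nearest gene of 15 regions, of which 4 were delta-selective and none alpha-selective. They sat 5.63 kb upstream, at the start, and 2.50 and 5.45 kb downstream, within 11.8 kb, and formed 1 of the 5 delta-selective runs of 4 regions, the longest delta-selective runs found. Their −log10 p values in delta 1 and delta 2 were 3.22 and 4.67 at the upstream region, 3.05 and 3.19 at the start, 4.75 and 5.27 at the region whose sequence is printed above, and 4.58 and 3.81 at the farthest. Only the printed region was strong in both lists, and the region at the start was seen strongly in beta 1 alone among the beta lists. When delta 2 was left out, the number of regions at Sst per 1000 selective regions of each kind, alpha less delta, was 0.0390, against −0.581 with all lists. Hhex had 1 delta-selective region among 11, 5.94 kb downstream, with 5.85 in delta 1 and 4.34 in delta 2. Gcg had 1 alpha-selective region among 19, 18.7 kb upstream in an intron of Fap, with 7.16 in alpha 1 and 8.94 in alpha 2. Irx1 had 5 alpha-selective regions among 128 and no delta-selective region, from 302 kb upstream to 342 kb downstream. The region 0.715 kb upstream of Irx1 had 6.44 and 4.26, and the one 188 kb upstream had 4.58 and 11.1. Irx2, its neighbour, had 3 of each kind among 96.

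Across the genome, several selective regions of the same direction at a gene were uncommon, and such genes were large in the count of regions they collected. Of 20819 genes with an assigned region, 1449 had 2 or more alpha-selective regions, 6.96%, and 1371 had 2 or more delta-selective regions, 6.59%. Several alpha-selective regions and no delta-selective region were found at 626 genes, and the reverse at 519. Several of both were found at 485 genes, 33.5% of the first group and 35.4% of the second. The median number of regions assigned was 6 over all genes, 45 at genes with several alpha-selective regions and 53 at those with several delta-selective regions. Single alpha-selective regions lay at 3311 genes, and 102 genes had 5 or more. For delta-selective regions these counts were 2680 and 195.

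Among genes ranked by strong alpha-selective regions less strong delta-selective ones, Bmper, Hace1, Cdh4 and Lmo7 shared the first place with a difference of 4. Bmper, which encodes a secreted regulator of BMP signals, had 6 alpha-selective regions, 4 of them strong, and 1 delta-selective region among 121. Its adjacent regions 275 and 274 kb upstream were both strong and entered the rank as separate regions. They lay close together, at chr9:22947646-22948112 and chr9:22948308-22948719. The second, whose printed window is a tandem array, had a −log10 p of 8.18 in alpha 1 and 8.50 in alpha 2. Hace1, a ubiquitin ligase gene, had 8 alpha-selective regions of which 5 were strong and 6 delta-selective regions of which 1 was strong. Cdh4, which encodes R-cadherin, had 6 and 5, with 4 strong on the alpha side and none on the delta side. At Hace1 and at Cdh4, 1 of the strong alpha-selective regions was seen strongly in beta 1 alone. Lmo7, a gene of the adherens junction, had 4 and 4, all 4 alpha-selective regions strong and no delta-selective one. The printed Lmo7 region had 7.63 in alpha 1 and 6.30 in alpha 2. Over all selective regions, strong or not, the directions at these 3 genes were close, and the balance changed sign with the lists used. It ran from −0.296 to 0.329 per 1000 at Hace1, from −0.174 to 0.479 at Cdh4 and from −0.289 to 0.284 at Lmo7 when a list was left out.

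Among the named genes, alpha-selective regions without any delta-selective region were most numerous at Rbms3, an RNA-binding protein gene, which had 10 among 148, 8 of them inside its own introns. Of these, 3 were strong, and 1 of the 3 was seen strongly in beta 1 alone. Slc30a5, a zinc transporter gene, had 6 among 35, all upstream, the nearest at 11.2 kb with 16.7 in alpha 1 and 4.41 in alpha 2. Lrig1, which encodes a membrane protein that dampens growth factor receptors, had 5 among 39. Lrig1 carried them from 79.7 kb upstream of its start to 71.0 kb downstream, and the last had 10.3 in alpha 1 and 11.3 in alpha 2. Ctif, a translation factor gene, had 5 among 36, and Trim42 had 5 among 66, of which the strongest lay 159 kb upstream in an intron of Clstn2 with 13.9 and 8.26. Cacna2d3, a calcium channel subunit gene, had 4 among 96, and its intronic region 4.19 kb downstream of an internal annotated start had 8.54 in alpha 1 and 7.94 in alpha 2. Counted from 5′ gene ends only, the balance at Cacna2d3, alpha less delta per 1000 selective regions of each kind, fell from 0.556 to 0.139. Sec16b, a gene of the endoplasmic reticulum exit sites, had 7 alpha-selective regions and 1 delta-selective region among 66, and Fat4, an atypical cadherin gene, had 5 and 1 among 102.

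The delta direction was led by Pcdh18, a protocadherin gene, with 16 delta-selective regions, 10 of them strong, among 166. They reached from 170 kb upstream to 1211 kb downstream of its start. The region 170 kb upstream had a −log10 p of 20.7 in delta 1 and 27.7 in delta 2, the highest of the locus when the lower of both values is taken. The region 709 kb downstream had 18.8 and 13.5, and the one 481 kb downstream had 24 and 14.4. The latter was seen strongly in beta 1 alone. Both alpha-selective regions at Pcdh18 were of that kind as well. Stim2, a calcium sensor gene of the endoplasmic reticulum, had 13 delta-selective regions, 6 of them strong, and 1 alpha-selective region among 222. Its strongest lay 153 kb downstream, with 16.1 in delta 1 and 7.26 in delta 2.

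Mef2c, a MADS-box transcription factor gene, had 11 delta-selective regions, 6 strong, and 2 alpha-selective regions, neither strong, among 183. The region 125 kb upstream of Mef2c had 24.5 and 17, and the one 0.537 kb upstream of an annotated start had 9.34 and 18.9. Klf6, a zinc finger transcription factor gene, had 6 delta-selective regions, 5 strong, and no alpha-selective region among 126. Around Klf6, 3 of them lay 16.9 kb upstream with 7.07 in delta 1 and 8.27 in delta 2, 2.80 kb downstream with 8.75 and 6.80, and 8.89 kb downstream with 4.75 and 6.74. None of these 3 had a peak in any beta list. Lrfn5, a synaptic adhesion gene, had 11 delta-selective regions and Klhl29 had 10, with no alpha-selective region at either, and 1 strong region at Klhl29 was seen strongly in beta 1 alone. At Lrfn5 they spread from 1112 kb upstream to 1326 kb downstream. Igfbp7, which encodes a secreted IGF-binding protein, had 9 delta-selective and 2 alpha-selective regions among 197, and the printed region 376 kb upstream had 23.5 and 12.6. Tenm3, a teneurin adhesion gene, had 16 and 5 among 351, with 1 strong delta-selective region seen strongly in beta 1 alone, and Pcdh9, another protocadherin gene, had 13 and 4 among 432. The same balance at Pcdh9 was −1.33 and turned to 0.0514 without alpha 2. Csmd3 had 13 and 1, Tbl1xr1 had 11 and 2, and Gm597 had 9 and 1.

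**Figure D2:**
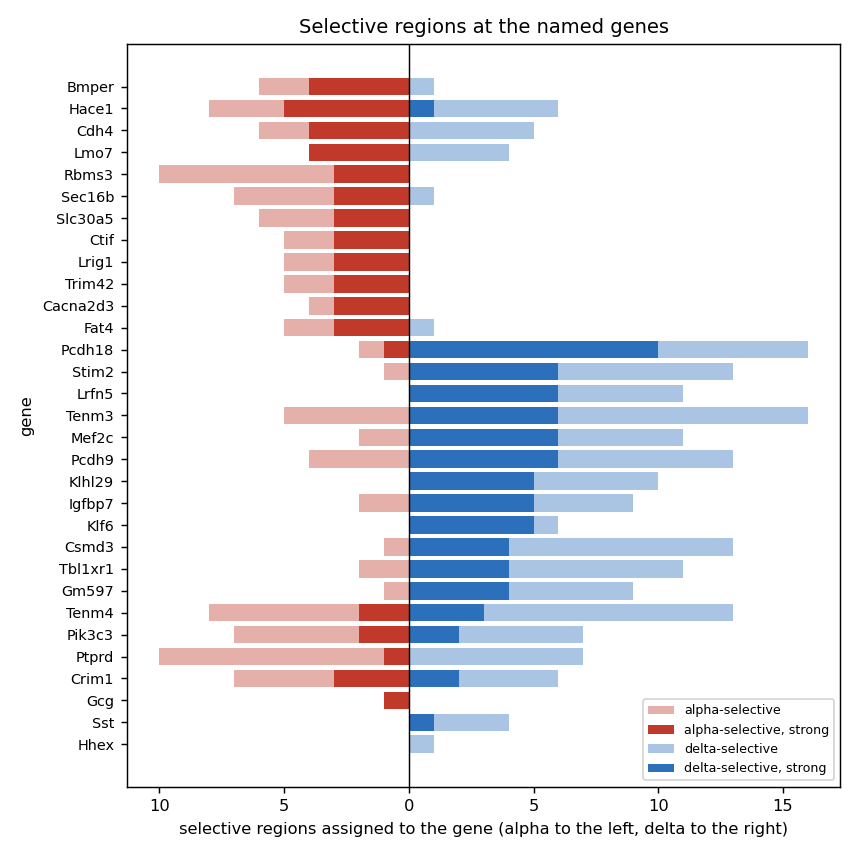
Selective regions at the named genes, as counts of alpha-selective regions to the left and delta-selective regions to the right, with strong regions in the darker colour. Genes are in rows, first the 12 of each direction, then the 4 mixed genes and Gcg, Sst and Hhex, and the bar of Pcdh18 reaches 16 on the delta side against 2 on the alpha side.

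**Figure D3:**
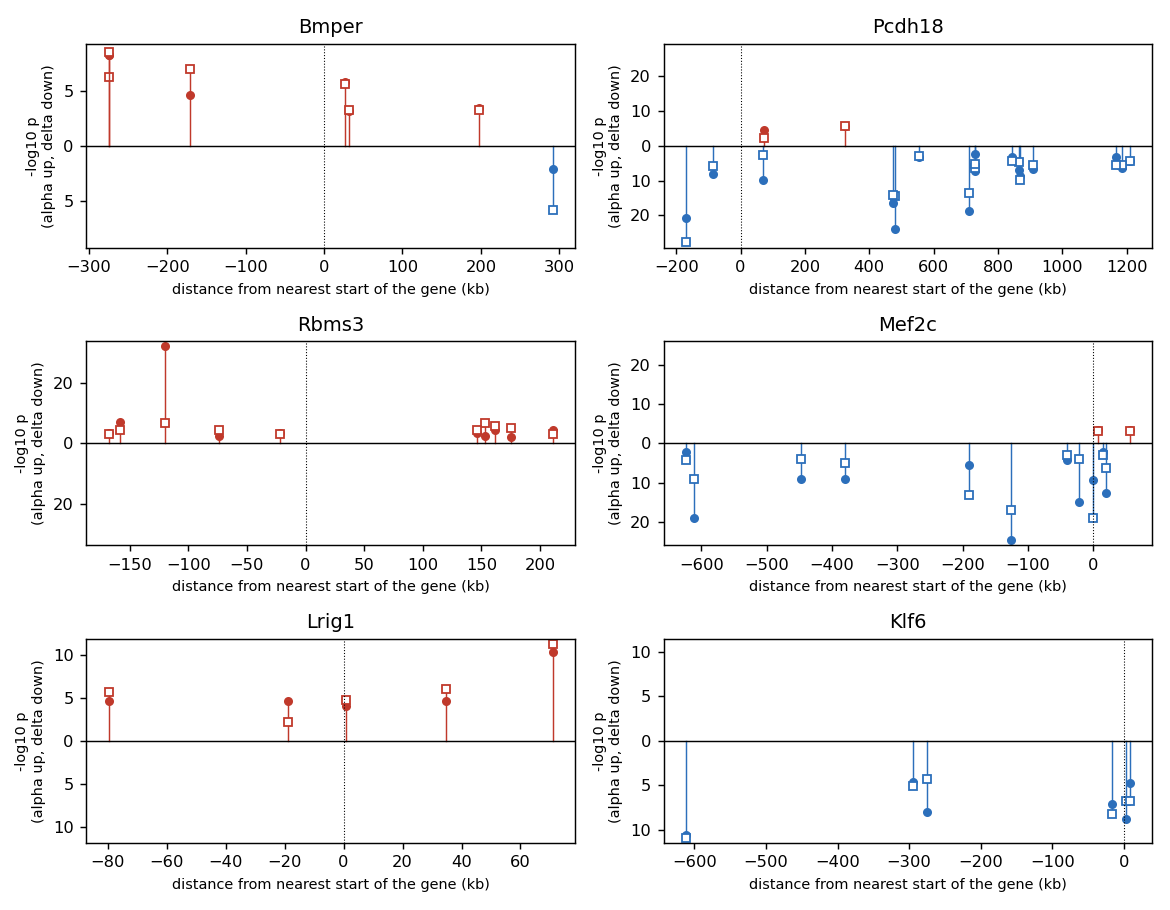
Position and −log10 p of selective regions at 6 of the named genes, with distance from the nearest start of the gene (kb) on the horizontal axis and −log10 p of the peaks on the vertical axis, alpha drawn upward and delta downward. Filled circles are replicate 1 and open squares replicate 2, and the Lrig1 and Rbms3 panels hold alpha-selective regions only while the Klf6 panel holds delta-selective regions only.

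Some genes collected many regions of both kinds. Tenm4 had 8 alpha-selective and 13 delta-selective regions, a balance of −0.775 per 1000 that turned to 0.388 without delta 2. Pik3c3 had 7 and 7, Ptprd had 10 and 7, and Crim1 had 7 and 6, and the sign of the balance at these 3 genes also depended on the lists used. Regions of the same direction also lay close together without an opposite region between them. With neighbours at most 20 kb apart, there were 493 alpha-selective runs and 541 delta-selective runs of 2 or more regions, of which 36 and 51 held at least 3. The longest alpha-selective run had 5 regions within 31.2 kb, 186 to 217 kb from a start of Lrmda, a gene linked to melanocyte differentiation. Other alpha-selective runs had 4 regions within 35.2 kb at Cass4 and Rtf2, and 4 within 20.9 kb at Myrip, which encodes a linker of secretory granules to myosin. The strongest delta-selective run had 4 regions within 34.0 kb, all strong, about 594 to 628 kb from Ndn, an imprinted gene. A delta-selective run of 4 at Kif16b spanned 20.8 kb.

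Gene lists were read by the share of their regions that were selective, beside 2.28% and 2.18% over all merged regions, because genes that collect more regions have more chances. In a list of 16 genes of alpha cell identity, 6 had several alpha-selective and 4 several delta-selective regions, and 3.23% and 1.84% of their 651 regions were selective. Besides Gcg and the Iroquois genes, Pou3f4, a POU-homeodomain gene, had 2 alpha-selective regions and none of the other kind, while Dpp4, which encodes a peptidase that trims incretin hormones, had 2 delta-selective regions. In a list of 17 genes of delta cell identity, 2 had several alpha-selective and 6 several delta-selective regions, and the shares of 505 regions were 1.39% and 4.36%. Ptprz1, a receptor phosphatase gene, had 3 delta-selective regions and no alpha-selective one, with 23.8 in delta 1 and 13.1 in delta 2 at the region 182 kb upstream. Frzb, a secreted Wnt antagonist gene, had 2, with 8.62 and 10.1 at 42.6 kb downstream. Spock3, a proteoglycan gene, had 5 delta-selective regions and 1 alpha-selective region. Lepr, the leptin receptor gene, had 2 alpha-selective regions and no delta-selective one.

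Among 29 transcription factor genes used by several islet cell types, 10 had several regions in each direction, and the shares were 2.49% and 2.63%, near those of all regions. Alpha-selective regions alone were found at Rfx3, a regulator of cilia and islet genes, with 3, and at Nkx6-1, Pax4 and Tshz1, with 2 each. The Rfx3 region 58.2 kb upstream had 7.16 in alpha 1 and 5.63 in alpha 2. Delta-selective regions alone were found at Nfib, with 4, Nkx2-2, with 3, and Insm1, with 2. The Nkx2-2 region 70.3 kb upstream had 11.5 in delta 1 and 10.5 in delta 2. Foxa2, a forkhead factor gene, had 2 alpha-selective and 4 delta-selective regions, and Meis1 also had 2 and 4.

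Receptor and channel genes showed both directions. Of 36 receptor genes, 12 had several alpha-selective and 10 several delta-selective regions, and the shares were 2.62% and 2.20%. Galr1, a galanin receptor gene, Gpr39, a zinc-sensing receptor gene, and Avpr1b, a vasopressin receptor gene, had 3 alpha-selective regions each. At Galr1 the region 0.414 kb upstream had 9.49 and 6.61, and at Gpr39 the region 41.0 kb downstream had 8.75 in both alpha lists. Grm3, a metabotropic glutamate receptor gene, had 4 delta-selective regions and no alpha-selective one, P2ry1, a purine receptor gene, had 4 and 1, and Igf1r, the IGF-1 receptor gene, had 2 and none. The Igf1r region 0.153 kb from its start had 7.34 in delta 1 and 6.85 in delta 2. Of 28 ion channel genes, 12 had several alpha-selective and 9 several delta-selective regions, with shares of 3.42% and 2.12%. Cacna1e had 3 alpha-selective regions and no delta-selective one, Kcnip4 had 7 and 3, and Cacna1h had 1 and 3. Without the regions seen strongly in beta 1 alone, 10 channel genes had several alpha-selective regions, and Cacna1d was among those that no longer did.

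Of 43 genes of axon guidance and cell contact, 22 had several alpha-selective and 24 several delta-selective regions, but these genes had a median of 76 regions each, and the shares were 1.63% and 2.29%. Nrp2, a semaphorin co-receptor gene, had 6 alpha-selective regions and no delta-selective one, and its leading regions lay in introns of the neighbouring gene Pard3b. Efnb2, an ephrin gene, had 11 delta-selective and 3 alpha-selective regions, Nrxn3 had 11 and 6, Cntnap2 had 8 and 1, and Sema6a had 5 and none. The Efnb2 region 1220 kb from its start had 18.6 in delta 1 and 18.1 in delta 2. Among 28 adherens junction genes, 7 had several alpha-selective and 10 several delta-selective regions, with shares of 2.0% and 2.68%. Ctnnd2, a catenin gene, had 8 delta-selective and 3 alpha-selective regions, and Ptprm, an adhesive phosphatase gene, had 4 and none. Among 41 genes of developmental signals the counts were 17 and 13 and the shares 2.50% and 2.67%. Nrg3 had 9 delta-selective and 1 alpha-selective region, Nrg1 had 8 and 3, and Acvr2a, an activin receptor gene, had 7 and 3. Shh, a hedgehog ligand gene, had 3 alpha-selective regions and no delta-selective one, and its region 341 kb upstream had 4.58 in alpha 1 and 13.7 in alpha 2.

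Lists for other cell types were read as a check of the sorted cells. In 9 genes of beta and PP cells, 2 had several alpha-selective and 1 several delta-selective regions, and 3.62% and 2.71% of their 221 regions were selective, the former the highest alpha-selective share among the lists. Ins1 had 4 alpha-selective regions among 87 and no delta-selective one, and Slc2a2 had 2 and 4. Of 22 markers of acinar, duct, endothelial, immune and stromal cells, 21 had an assigned region, 2 had several alpha-selective regions and 1 had several delta-selective regions, and 2.63% and 1.23% of their regions were selective. Sox9, a duct and progenitor gene, had 5 alpha-selective and 1 delta-selective region among 107. Whether such cells were present in the sorts was not tested.

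Both sets of selective regions lay near starts less often than regions called in all 4 lists. Within 3 kb of a start were 11.9% of alpha-selective regions (95% Wilson interval 11.1 to 12.6) and 9.36% of delta-selective regions (8.70 to 10.1), against 42.3% of regions called in all 4 lists. Over all merged regions the share was 10.5%, between those of the selective sets. The order of the selective shares turned without alpha 1, at 8.09% and 10.3%, and without alpha 2, at 6.55% and 11.9%. Delta-selective regions were more remote than alpha-selective regions with all lists used, with 34.5% over 100 kb from a start against 26.9%, and a median distance of 47.8 kb against 34.6 kb. Over all merged regions these values were 35.7% and 49.3 kb. Introns held 44.2% of alpha-selective and 43.1% of delta-selective regions, and exons 6.97% and 4.65%. These intervals cover counting error alone, since regions of the same libraries are not replicates. Over whole libraries, peaks within 3 kb of a start made up 16.8% and 19.5% of the alpha lists and 14.8% and 25.3% of the delta lists, so the groups overlapped. The means were 18.2% ± 1.89 and 20.1% ± 7.45 (SD, n = 2 each), and the two-sided exact permutation test gave p = 1.00. The median width was 296 bp in alpha-selective and 328 bp in delta-selective regions, against 577 bp in regions called in all 4. Windows masked as repeats over more than 50% of their length made up 14.4% of the alpha-selective set and 6.48% of the delta-selective set. Over all merged regions they made up 20.4%. In regions seen strongly in beta 1 alone on the alpha side this share was 36.5%.

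With all lists used, delta-selective regions were found in beta 2 and beta 3 more often than alpha-selective regions, and in beta 1 about equally often. Beta 2 held a peak at 10.4% of alpha-selective and 23.8% of delta-selective regions, and beta 3 at 13.2% and 26.9%. Beta 1 held a peak at 46.0% and 46.8%, against 26.8% of all merged regions. At least 2 beta lists held 12.2% of the alpha-selective and 27.4% of the delta-selective regions. This share was 79.7% in regions called in all 4 alpha and delta lists. Over all merged regions it was 13.2%, near the alpha-selective and below the delta-selective share. No beta list held 45.1% of alpha-selective and 39.9% of delta-selective regions, against 67.5% of all merged regions. The order of the selective shares in at least 2 beta lists turned when a delta list was left out. Without delta 1 they were 23.6% of alpha-selective and 10.1% of delta-selective regions, and without delta 2 they were 16.9% and 4.33%. With beta 1 left out, both other beta lists held 3.55% of alpha-selective and 12.5% of delta-selective regions. Beta 2 and beta 3 share lane number 7 with the delta lists, and beta 1 shares lane number 6 with the alpha lists. The deposited names of the beta lists, which begin with delta or alpha, follow the same division. Cell type, mouse line and lane therefore cannot be told apart in this difference. For Klf6, 2 of 6 delta-selective regions were in 2 or more beta lists, both more than 200 kb from its start. Among the 12 leading genes of the delta direction this ran from 0 of 9 at Gm597 to 8 of 16 at Pcdh18 and at Tenm3. On the alpha side no alpha-selective region was of this kind at Bmper, Cdh4, Lmo7, Rbms3, Lrig1, Trim42, Cacna2d3 and Fat4. The highest counts there were 3 of 8 at Hace1 and 3 of 6 at Slc30a5.

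**Figure D4:**
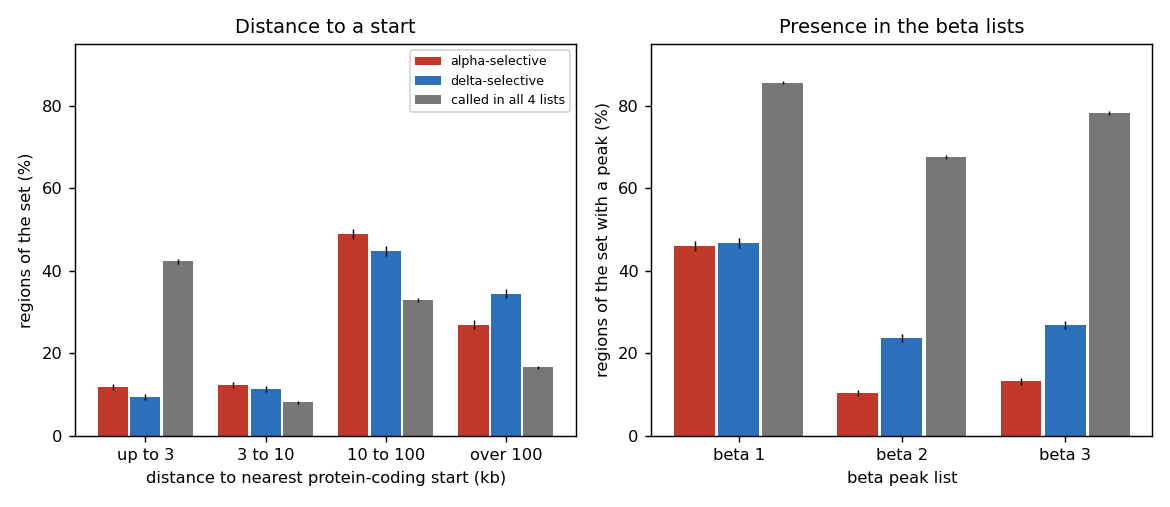
Left, percent of regions in each distance class from the nearest protein-coding start (kb); right, percent with a peak in each beta list, for alpha-selective regions (red), delta-selective regions (blue) and regions called in all 4 alpha and delta lists (grey), with 95% Wilson intervals as error bars. Regions called in all 4 lists lead within 3 kb at 42.3%, and blue exceeds red in beta 2 and beta 3 but not visibly in beta 1.

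The letters under the selective summits differed between the directions. Windows of 200 bp were read on both strands in regions more than 3 kb from a start, 6336 alpha-selective and 6243 delta-selective. TAATTA was found in 9.77% of delta-selective windows (95% Wilson interval 9.06 to 10.5) and 5.35% of alpha-selective windows (4.82 to 5.93), against 5.58% in all distal regions. In strong regions the shares were 11.9% and 5.60%. GTTGCNA was found in 13.6% of delta-selective windows (12.8 to 14.5) and 7.50% of alpha-selective windows (6.87 to 8.17), against 14.7% in regions called in all 4 lists and 7.47% in all distal regions. The alpha-selective windows were thus at the level of all distal regions, and the delta-selective windows near that of shared regions. The marked windows at Pcdh18 and Igfbp7 are examples. Among delta-selective windows, TAATTA was in 10.9% of those called in 2 or more beta lists and in 9.34% of the others, and GTTGCNA in 12.6% and 14.1%.

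TGCTGAC went the other way, with 7.62% of alpha-selective windows (7.0 to 8.30) and 4.32% of delta-selective windows (3.85 to 4.86), against 5.77% in regions called in all 4 lists and 4.25% in all distal regions. In strong regions the shares were 9.96% and 4.82%, and in the alpha-selective windows seen strongly in beta 1 alone the share was 3.62%. The Lmo7 window holds such a match. When the alpha 2 list was left out, the difference turned, with delta-selective windows higher by 0.834 percentage points. TGANTCA was in 16.1% of alpha-selective and 20.5% of delta-selective windows, against 23.6% in regions called in all 4 lists and 10.7% in all distal regions. Without delta 1 its difference, delta-selective less alpha-selective, was −6.08 percentage points and without delta 2 it was −7.31, so its direction depended on having both delta lists. GTTGCNA turned only without delta 2, to −0.994, and kept its direction in every omission of a list when strong peaks alone were used, from 2.0 to 8.71. TAATTA kept its direction in every omission, from 0.108 to 5.14 with all peaks and from 3.26 to 5.51 with strong peaks alone.

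Per library, strong distal peaks held TAATTA in 5.74% and 5.35% of alpha windows and 6.85% and 6.92% of delta windows, so the cell types did not overlap. GTTGCNA was at 10.2% and 12.2% in alpha and 13.8% and 14.4% in delta, again without overlap. TGCTGAC was at 5.09% in alpha 1 and 6.59% in alpha 2 and at 5.39% and 5.14% in delta, and the groups overlapped. With 2 libraries a side the smallest exact permutation p is 0.333, and none of these differences can pass a threshold of 0.05. Other common letters differed less in percentage points. CAGATG, an E-box bound by NEUROD1, was in 21.5% of alpha-selective and 18.5% of delta-selective windows, TGACAG, a MEIS site, in 18.2% and 15.4%, and TGTTTAC, a forkhead site, in 5.81% and 6.09%. Rare letters differed more in ratio. CAAAGTCCA, a site of HNF4 type, was in 0.237% of alpha-selective windows (0.144 to 0.390) and 0.961% of delta-selective windows (0.747 to 1.24), against 0.367% in all distal regions. GTTGCCATG, a longer X-box stretch that contains the core, was in 0.505% (0.358 to 0.712) and 1.23% (0.988 to 1.54), against 0.509%. These were not recomputed without each list.

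**Figure D5:**
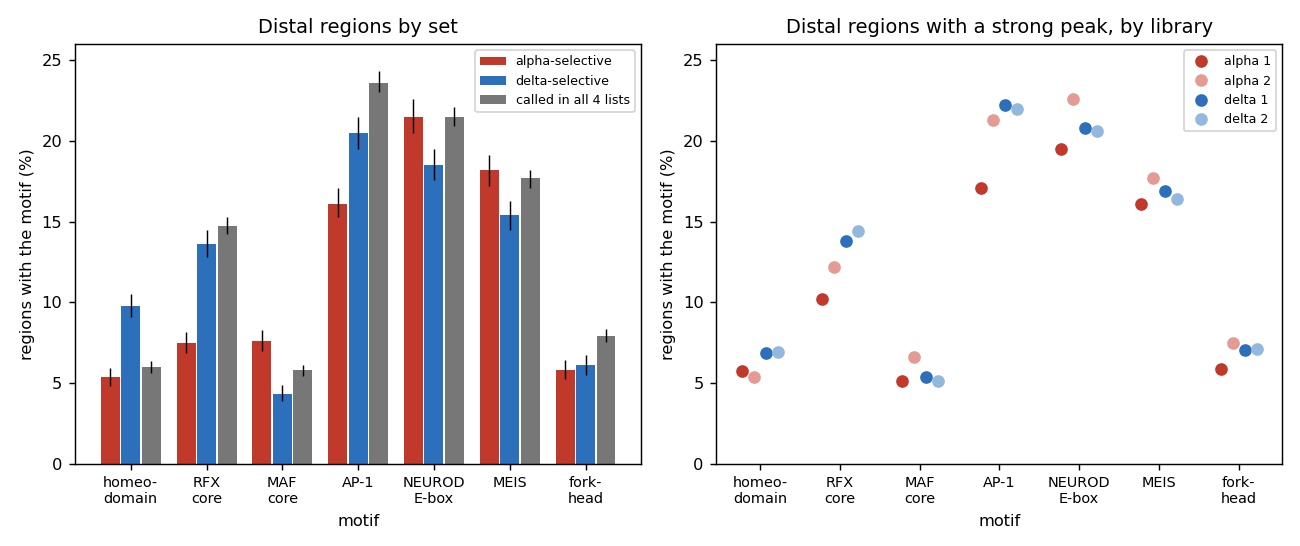
Left, percent of distal 200-bp windows that hold each set of letters in alpha-selective (red), delta-selective (blue) and shared (grey) regions, with 95% Wilson intervals; right, the same percent in strong distal peaks of each library, as a point per library. The homeodomain letters TAATTA and the RFX core GTTGCNA are higher in blue than in red on the left, and both delta points lie above both alpha points on the right.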

How the data were processed

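The series measured chromatin accessibility by ATAC-Seq in FACS-sorted islet cells of reporter mice, and samples were grouped by the cell type in their labels. The authors sequenced single-end 50 bp reads. The submitters' processing notes name FastQC, Trimmomatic, Bowtie2, Picard and MACS2 and the build mm10, with no versions. The authors deposited a MACS2 narrowPeak list for each library, with an integer display score, a fold enrichment at the summit and the −log10 p-value and −log10 q-value of each peak. The p-values of the peaks compare reads with the local background within a library, not libraries with each other. The score was not used here. The study tested reads per region. The lists do not hold these, so no read-level test was made, and differences in peak height per region were not tested.

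Distinct intervals of the alpha and delta lists were merged where they overlapped by at least 1 bp, and each merged region took its strongest peak per list. Distances ran from the edge of a region to the nearest protein-coding transcript start of GENCODE vM21 (54374 starts, 21951 genes), with negative values upstream. A start inside the region counted as no distance. Python 3.11.15, numpy 2.4.6, pandas 2.3.3 and scipy 1.17.1 were used. Merging, selective calls, distances to starts and the motif search were tested on simulated data. Comparisons over libraries used exact permutation tests, which 2 against 2 libraries cannot bring under 0.333, and shares carry Wilson intervals. The labels call the replicates biological. The main tests did not treat samples as paired by replicate number. The deviations of equal replicate numbers had a correlation of −0.05 over all merged regions. Most of these regions belonged to a single list, so this value cannot decide on pairing. The genes named were, per direction, the 12 with the most strong selective regions net of the other direction, the 3 leading regions and runs, the 4 leading mixed genes, and members of gene lists with 2 or more selective regions. Members and lists were chosen with earlier results of these data known. The results were recomputed with strong peaks only in every list (−log10 q at least 2), strong peaks in both own lists, the 50000 leading peaks per list, peaks covering at least 0.5 of a region, 5′ gene ends, a 100 kb limit, a 100 bp window and leaving out each list. Values of some genes of the lists are not reported here.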

Additional observations from a re-analysis of the deposited data

How the results depend on the processing

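The number of selective regions depended on how peaks were admitted. With every list restricted to strong peaks there were 4272 alpha-selective and 4056 delta-selective regions, with the 50000 leading peaks per list 3737 alpha-selective, and with strong peaks asked of the own lists only 2025 and 2081. Leaving out a list gave 9263 to 82397 alpha-selective and 9452 to 101476 delta-selective regions, since a single list then defines a cell type. Genes with several alpha-selective regions numbered 731, 599 and 197 in the first 3 settings, 884 within 100 kb and 1963 to 10734 without a list. Those with several delta-selective regions numbered 788 (restricted), 338 (strong own peaks), 781 (100 kb) and 1926 to 10452 without a list.

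The promoter-proximal share of alpha-selective regions was 15.8% with restricted lists and with leading peaks, 12.7% with strong own peaks, 15.9% with coverage of at least 0.5, 8.61% from 5′ gene ends and 6.55% to 15.3% without a list. That of delta-selective regions was 10.7% (restricted), 10.2% (strong own peaks), 6.71% (5′ gene ends) and 5.51% to 11.9% without a list, and the order of the shares turned without alpha 1 (8.09% alpha-selective, 10.3% delta-selective) and without alpha 2 (6.55%, 11.9%). The share called in at least 2 beta lists was 7.49%, 11.2%, 16.2% and 19.5% for alpha-selective and 18%, 23.3%, 39.1% and 33.3% for delta-selective regions (restricted, leading peaks, strong own peaks, coverage), and 2.43% to 23.6% and 4.33% to 34.4% without a list, with the order turned without delta 1 (23.6%, 10.1%) and without delta 2 (16.9%, 4.33%). Chosen after the data were seen, leaving out the regions seen strongly in beta 1 alone gave 13.4% for alpha-selective regions, and leaving out beta 1 gave 3.55% and 12.5%.

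Per library, the promoter-proximal share of alpha less delta was −1.88 percentage points, 0.216 with the 50000 leading peaks and −7.14 to 3.39 without a list, 3.39 being the value without delta 2. With the replicate number as a block, the exact permutation p was 0.50 for the number of selective regions and the library difference stayed at −1.88 with p = 1.00. The block changed no call.

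For letters in distal windows, differences are delta-selective less alpha-selective in percentage points, and every setting but the 100 bp window and the restricted lists was chosen after the data were seen. TAATTA gave 4.42, with 5.68 (restricted), 6.28 (strong own peaks), 2.77 (100 bp) and 0.108 to 5.14 without a list. With restricted lists it was 5.51 and 3.26 without alpha 1 and alpha 2, and 3.34 without delta 2. GTTGCNA gave 6.15, with 8.40 (strong own peaks), 4.16 (100 bp) and −0.994 to 7.91 without a list. With restricted lists it was 8.71 without alpha 2 and 3.15 and 2.0 without delta 1 and delta 2. TGCTGAC gave −3.30, with −4.46 (restricted), −5.14 (strong own peaks), −2.06 (100 bp) and −3.40 to 0.834 without a list, the last without alpha 2. With restricted lists it was 0.264 without alpha 2 and −4.18 without delta 1. TGANTCA gave 4.37, with 8.65 (strong own peaks) and −7.31 to 12.2 without a list. With restricted lists it was 11.9 without alpha 2, −3.02 without delta 1 and −1.18 without delta 2.

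Per 1000 selective regions of each kind, alpha less delta, the balance without a list ran from −1.41 to 0.0514 at Pcdh9, turning without alpha 2, from −0.995 to 0.388 at Tenm4 and from −0.406 to 0.0390 at Sst, both turning without delta 2. At Hace1, Cdh4, Lmo7, Pik3c3, Ptprd and Crim1, where the directions were close, the sign changed without at least 1 of the lists, and at Cdh4 it also turned with 5′ gene ends (−0.169). The causes were not tested. A missing peak cannot be told from a shallow library, and delta 2 was the shallowest of the alpha and delta libraries.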
